A study of Mus musculus with 16 samples.

Results

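Complement genes were followed in primary mouse astrocytes that either carried or lacked Nlrx1 and that were left unstimulated or driven into an inflammatory state. The genes were 9 components and regulators of the cascade, picked by symbol from the deposited log2 CPM table (CPM, read counts scaled to library size): C1ra, C1s1, C2, C4b, C3, Cfb, Serping1, Cd55 and Cd59a. All 9 had a row, out of 16707 rows in the table. The cells were taken from the brains of P6 pups with beads against ACSA-2, an astrocyte surface antigen, and grown for about 10 days in serum-free medium. Pups were WT (C57BL/6J) or Nlrx1-/-. Each of 4 litters per genotype, a litter being 1 set of pups grown together, gave a vehicle well (H2O) and a well that received 500 ng/mL LPS with 10 ng/mL IFNγ, both for 24 h, so that the 16 libraries fell into 4 groups of 4. Other parts of the paper give younger pups and phosphate buffered saline as vehicle. The age and vehicle stated here follow the sample labels and the methods.

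Complement is a cascade of proteases and opsonins that tags debris, microbes and, in the brain, synapses for removal. In the classical pathway C1q carries the proteases encoded by C1ra and C1s1, which cleave the products of C4b and C2 to build an enzyme that cleaves C3. Factor B, from Cfb, builds the corresponding enzyme of the alternative pathway. Serping1 encodes C1 inhibitor, which blocks C1r and C1s, Cd55 encodes a membrane protein that speeds the decay of both C3-cleaving enzymes, and Cd59a encodes a membrane protein that blocks pore formation. Reactive astrocytes are a known source of C3 in the inflamed brain.

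The libraries held between 27259420 and 43752903 read pairs assigned to transcripts. Nlrx1 (chromosome 9, 44164011 to 44179896, minus strand) was at 17.2 to 21.7 CPM in the WT vehicle wells and 16.8 to 18.2 CPM in the stimulated WT wells, against 3.52 to 7.75 and 2.07 to 4.62 CPM in the Nlrx1-/- wells. It was the only row called between genotypes in vehicle (log2 difference -1.75 ± 0.25 (SE), limma adjusted p = 0.0497), and in LPS + IFNγ it was 2.22 ± 0.25 lower on the log2 scale (adjusted p = 0.00222). Leaving out 1 litter at a time kept the call in 8 of 8 fits in LPS + IFNγ and in 4 of 8 in vehicle (adjusted p from 0.00109 to 0.277). Whether the reads left in Nlrx1-/- wells lie outside the deleted stretch was not tested. All 10 astrocyte markers looked for, Gfap, Sox9 and Aqp4 among them, had rows, with a summed level of 2692 to 6867 TPM (a level scaled to transcript length and library size) over the 16 libraries. Of 12 microglia and macrophage markers only P2ry12 and Cd68 had rows, and the list summed to 1.94 to 5.52 TPM, with Aif1 at 0 reads in 14 libraries, Cx3cr1 in 11 and Tmem119 in 11. Markers of other brain cells were present: the oligodendrocyte-lineage list summed to 1698 to 3374 TPM and the neuronal list to 324 to 431 TPM. The range of the oligodendrocyte-lineage list overlapped that of the astrocyte list. Which cells gave the complement reads was not tested.

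Windows just before annotated start sites are shown for 3 genes that stand for the kinds of response seen below. Among the 9 genes, C3 rose by the widest margin in WT cells, C1s1 is a classical-pathway protease that rose, and Cd59a is the regulator that fell. Sequences are from RefSeq (GRCm38.p6), which had a window for 5 of the 9 genes, and each was placed at its single exact match in GRCm39, whose coordinates are given, and stopped before the first annotated exon. Capitals mark a match to the C/EBP letters TTGCNNAA in C3 and C1s1, and to the interferon-response letters (GAAA, any 2 bases, GAAA) in Cd59a, searched on both strands. C1s1 had a second listed start, whose window (124519281 to 124519530) held no match. The C1s1 window shown lies inside the gene as annotated in GRCm39 (124507297 to 124559389, minus strand).
C3, chr17:57535156-57535386, minus strand: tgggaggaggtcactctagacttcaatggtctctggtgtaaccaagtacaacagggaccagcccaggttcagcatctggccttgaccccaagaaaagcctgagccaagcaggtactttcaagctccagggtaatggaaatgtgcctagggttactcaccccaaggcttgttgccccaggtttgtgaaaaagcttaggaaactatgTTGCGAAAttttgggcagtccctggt
C1s1, chr6:124519319-124519568, minus strand: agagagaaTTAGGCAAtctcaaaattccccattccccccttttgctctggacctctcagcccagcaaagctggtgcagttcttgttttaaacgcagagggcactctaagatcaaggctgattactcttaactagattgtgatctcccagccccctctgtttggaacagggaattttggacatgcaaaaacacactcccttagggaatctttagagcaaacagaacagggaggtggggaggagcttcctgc
Cd59a, chr2:103925896-103926131, plus strand: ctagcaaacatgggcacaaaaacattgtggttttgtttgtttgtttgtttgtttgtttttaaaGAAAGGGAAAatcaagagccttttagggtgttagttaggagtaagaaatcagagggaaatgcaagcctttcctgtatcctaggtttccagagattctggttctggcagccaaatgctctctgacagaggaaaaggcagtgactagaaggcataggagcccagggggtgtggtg

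Counted from the listed start, the match spans positions -45 to -38 in C3, -242 to -235 in C1s1 and -187 to -178 in Cd59a. Over all 32851 windows of 250 bases, 9.56% held the C/EBP letters, 2.98% the interferon-response letters, 7.02% the STAT letters TTCNNNGAA and 3.9% an NF-kB consensus. The C3 and Cd59a sequences shown are shorter than these windows, at 231 and 236 bases. The STAT letters occurred in the C1ra window, 32 to 40 bases past its listed start and beside C/EBP letters at 16 to 23, and no window of the 5 genes held the NF-kB consensus. The shares above cover only the 250 bases before a start, so they do not apply to these C1ra matches. Before its start, none of the 5 genes held the STAT letters.

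Per transcript length, C4b was the most abundant of the 9 in unstimulated cells and Serping1 in stimulated ones. In WT vehicle wells C4b stood at 102 ± 27.4 TPM (SD, n = 4), which was 82.3% of the summed level of the 9 genes, and the next gene, Serping1, at 8.43 ± 1.79 TPM. Cd59a followed at 6.69 ± 1.60 TPM with a range that overlapped that of Serping1, then C1s1 at 3.21 ± 1.01 and C1ra at 1.74 ± 0.53 TPM, whose ranges also overlapped. Cd55, C2 and C3 were all below 1.21 TPM in every WT vehicle library, with overlapping ranges, and Cfb was lowest at 0.079 ± 0.094 TPM. After LPS + IFNγ the order in WT cells was Serping1 (735 ± 149 TPM), C4b (447 ± 62.0), C1s1 (141 ± 34.7), C1ra (118 ± 19.6), C3 (80.8 ± 46.0) and C2 (30.8 ± 7.49), and the ranges of the neighbours C1s1 and C1ra, C1ra and C3, and C3 and C2 overlapped. Cd59a, Cfb and Cd55 stayed below 4.28 TPM in each stimulated WT library. The summed level of the 9 genes went from 124 ± 32.3 to 1559 ± 306 TPM in WT cells and from 65.9 ± 38.5 to 1340 ± 135 TPM in Nlrx1-/- cells, without overlap between vehicle and stimulated wells in either genotype.

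**Figure D1:**
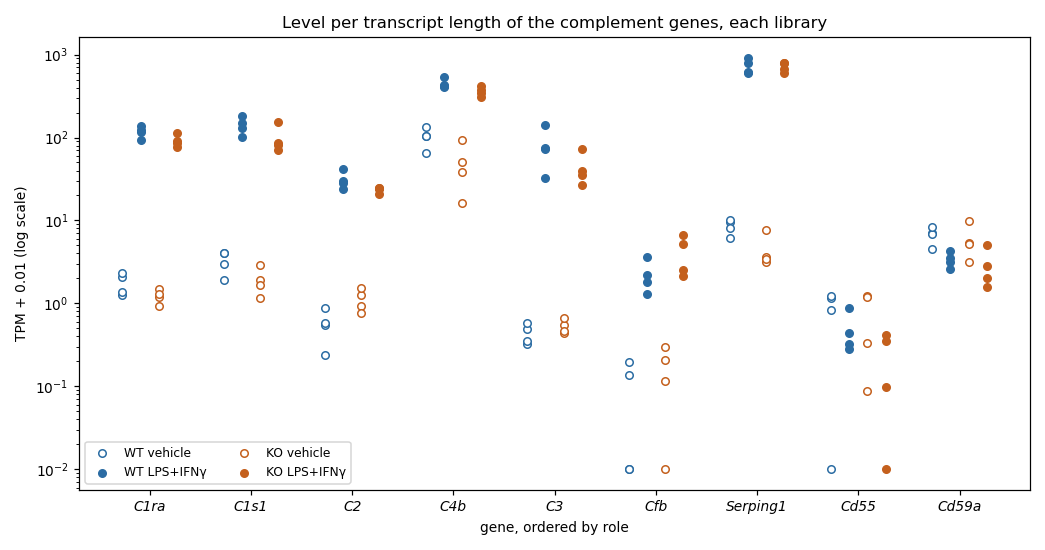
Level of each of the 9 complement genes in every library, as TPM plus 0.01 on a log axis, with open circles for vehicle wells and filled circles for LPS + IFNγ wells (blue WT, orange Nlrx1-/-, 4 litters each). Serping1 went from 8.43 to 735 TPM in WT cells and overtook C4b, while Cd55 and Cd59a did not rise.

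The first question was how the cascade responded to 24 h of LPS + IFNγ, asked within each litter. Of the 9 genes 7 rose in WT cells and 1, Cd59a, fell, and the same 7 and 1 were called in Nlrx1-/- cells (limma adjusted p below 0.05, litter as a block). Of all rows, 24.9% rose and 21.9% fell in WT cells, and 26.6% rose and 25.5% fell in Nlrx1-/- cells, so a call by itself was common. The sizes were less so: 6 of the 9 genes exceeded a log2 difference of 4 in each genotype, compared with 1.18% of rows in WT and 1.27% in Nlrx1-/- cells. For the 7 genes that rose, every stimulated well lay above every vehicle well in both genotypes, as for 20.2% of rows in WT and 17.6% in Nlrx1-/- cells. None lay wholly below, as 17.6% and 14.4% of rows did. The median log2 difference of the 9 genes was 5.69 in WT and 4.80 in Nlrx1-/- cells, beside -0.02 over all rows in both. The 9 genes were listed with earlier results of these data known, so these contrasts with all rows describe the list and test nothing. Over the 20 other complement genes with rows the median was -0.08 in WT and 0.00 in Nlrx1-/- cells. In bulk RNA, fewer cells that express a gene and less of its RNA per cell cannot be told apart.

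**Figure D2:**
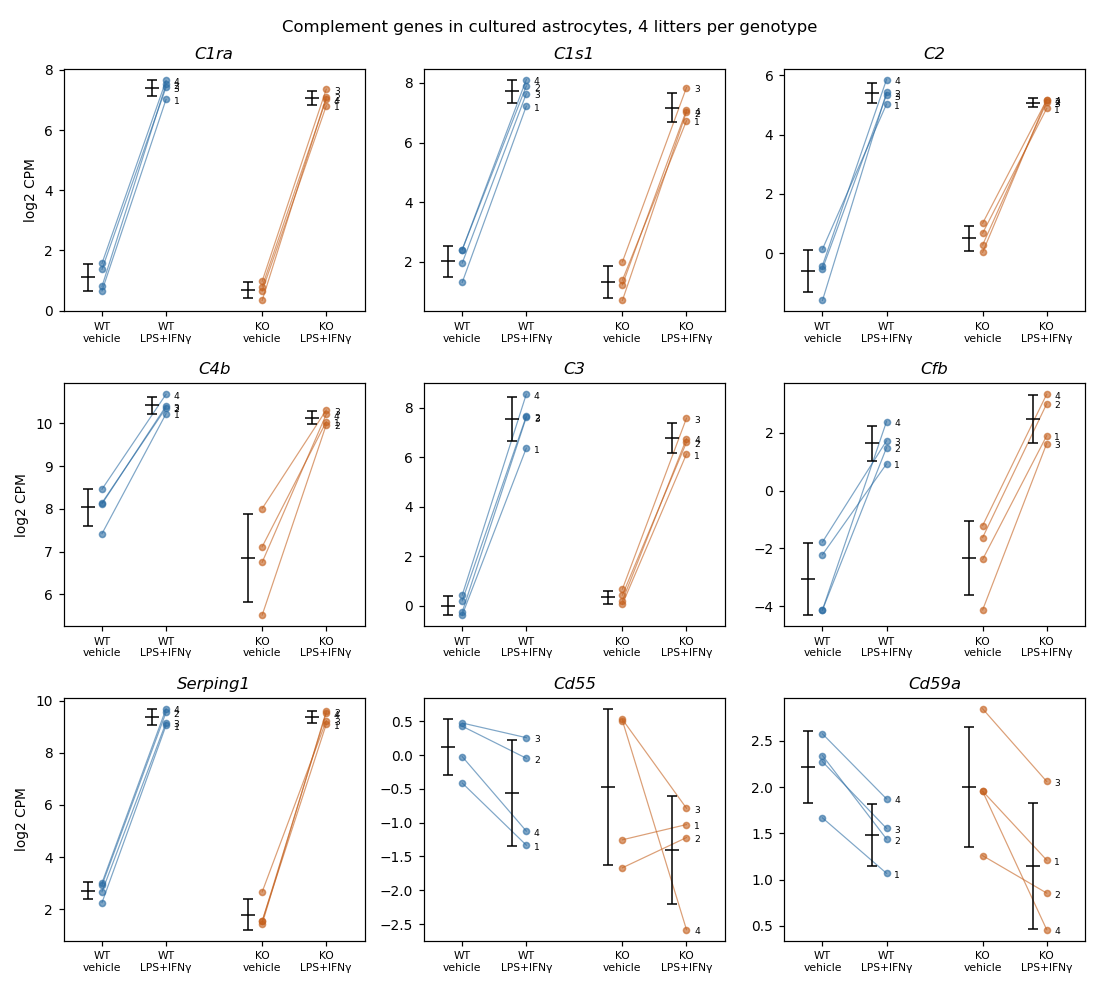
Deposited log2 CPM of the 9 complement genes by library, with a line joining the vehicle and the LPS + IFNγ well of 1 litter (numbered 1 to 4) and black bars for the mean ± SD of 4 litters. All stimulated wells lie above all vehicle wells for 7 genes in both genotypes, and the lines fall in every litter for Cd59a.

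C1ra and C1s1, the C1 proteases, rose by 5.34 to 6.76 on the log2 scale in every litter. In WT vehicle wells C1ra was at 0.66, 0.81, 1.38 and 1.57 log2 CPM in litters 1 to 4, and in stimulated wells at 7.02, 7.52, 7.42 and 7.65. In Nlrx1-/- cells it went from 0.66, 0.34, 0.98 and 0.80 to 6.80, 7.10, 7.36 and 7.03 log2 CPM. The groups were far apart, and the response was 6.30 ± 0.13 in WT and 6.38 ± 0.13 in Nlrx1-/- cells (log2 difference ± SE, n = 4 litters, limma adjusted p = 1.84e-12 and 1.93e-12), a 78.8-fold and an 83.2-fold rise. C1s1 went from 1.32, 2.41, 1.97 and 2.41 to 7.22, 7.89, 7.63 and 8.11 log2 CPM in WT litters. In Nlrx1-/- litters it went from 1.39, 0.71, 2.00 and 1.24 to 6.73, 7.02, 7.84 and 7.09. These are responses of 5.69 ± 0.13 and 5.83 ± 0.13 (limma adjusted p = 5.26e-12 and 4.05e-12), a 51.5-fold and a 57.1-fold rise. The 2 genes lie 6894 bp apart on chromosome 6 (C1ra 124489364 to 124500402, plus strand, and C1s1 124507297 to 124559389, minus strand, GRCm39), and C1s1 overlaps C1rb on the other strand. The libraries did not record strand, but C1rb took at most 0.16% of the reads of the C1ra and C1rb pair, and C1s2 took 10.9% and 19.1% of the C1s1 and C1s2 reads in WT and Nlrx1-/- vehicle wells and under 0.5% in stimulated ones.

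C2 and C4b, whose products form the classical C3-cleaving enzyme, both rose, from very different starting levels. C2 went from 0.14, -1.58, -0.52 and -0.41 to 5.02, 5.42, 5.33 and 5.85 log2 CPM in WT litters. In Nlrx1-/- litters it went from 0.68, 1.01, 0.29 and 0.04 to 4.88, 5.17, 5.09 and 5.18. The response was 6.00 ± 0.28 in WT and 4.57 ± 0.28 in Nlrx1-/- cells (limma adjusted p = 7.63e-09 and 8.42e-08), a 64.0-fold and a 23.8-fold rise, and the vehicle values rest on 8 to 33 reads per WT library and 42 to 73 reads per Nlrx1-/- library. C4b went from 7.42, 8.14, 8.12 and 8.46 to 10.23, 10.36, 10.41 and 10.68 log2 CPM in WT litters. In Nlrx1-/- litters it went from 7.12, 5.52, 8.01 and 6.75 to 10.04, 9.97, 10.31 and 10.21, so that the vehicle wells were spread more widely (SD 1.03) than the stimulated wells (SD 0.16). The response of C4b was 2.38 ± 0.24 and 3.28 ± 0.24 (limma adjusted p = 8.62e-06 and 4.76e-07), a 5.22-fold and a 9.73-fold rise from the highest vehicle level of the 9 genes. Its near-identical copy C4a took 0.0775% to 0.646% of the reads of the pair in the 4 groups.

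C3, on which all routes into the cascade converge, had the widest rise of the 9 in WT cells. It went from -0.38, 0.20, -0.25 and 0.43 to 6.37, 7.66, 7.62 and 8.55 log2 CPM in WT litters, and from 0.06, 0.43, 0.67 and 0.20 to 6.13, 6.60, 7.58 and 6.75 in Nlrx1-/- litters. The response was 7.56 ± 0.20 in WT and 6.43 ± 0.20 in Nlrx1-/- cells (limma adjusted p = 2.67e-11 and 1.43e-10), a 188-fold and an 86.2-fold rise. In reads, a WT library had 17 to 39 from C3 in vehicle and 2511 to 15592 after stimulation. Stimulated WT wells were the most uneven, from 82.8 to 376 CPM, with litter 1 lowest and litter 4 highest. A shorter predicted C3 transcript held 31.1% of the few vehicle reads in WT and 19% in Nlrx1-/- cells, whereas the full-length transcript held 99.2% and all of them after stimulation. C3 lies on chromosome 17 (57510964 to 57535155, minus strand).

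Cfb, the alternative-pathway protease, rose from near the detection limit to a level that was still low. In reads, WT vehicle libraries held 5, 0, 11 and 0 from Cfb and stimulated ones 52, 91, 92 and 196. Nlrx1-/- vehicle libraries held 5, 10, 0 and 15 and stimulated ones 125, 223, 111 and 346. No stimulated well overlapped a vehicle well, and the fitted response was 4.69 ± 0.51 in WT and 4.80 ± 0.51 in Nlrx1-/- cells (limma adjusted p = 1.53e-05 and 1.03e-05). With wells at 0 reads this size depends on the constant added before the logarithm (about 0.057 CPM in the deposited table): with 1 CPM added it was 1.90 and 2.46, still called in both. Cfb (chromosome 17, 35074852 to 35081559) starts 18 bp from the end of C2 on the same strand and overlaps Nelfe on the other strand over 3865 bp, so its reads are uncertain to that extent. Gm20547, annotated as protein-coding on the same strand, overlaps both Cfb and C2, and C2 overlaps Zbtb12 on the other strand. How far these overlaps moved reads of Cfb or C2 was not tested.

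Serping1, the inhibitor of the C1 proteases, rose together with them. It went from 2.25, 2.92, 2.67 and 3.01 to 9.06, 9.56, 9.16 and 9.69 log2 CPM in WT litters. In Nlrx1-/- litters it went from 1.55, 1.43, 2.66 and 1.53 to 9.10, 9.59, 9.24 and 9.53, with litter 3 apart from the other vehicle wells. The response was 6.66 ± 0.19 in WT and 7.57 ± 0.19 in Nlrx1-/- cells (limma adjusted p = 6.24e-11 and 1.7e-11), a 101-fold and a 190-fold rise. In Nlrx1-/- cells this was the widest rise of the 9. Serping1 lies on chromosome 2 (84595705 to 84620873, minus strand).

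The membrane regulators among the 9 genes, Cd59a and Cd55, were not called as rising. Cr1l, a regulator outside the 9, rose slightly, as given below. Cd59a went from 1.67, 2.34, 2.28 and 2.58 to 1.07, 1.44, 1.55 and 1.87 log2 CPM in WT litters and from 1.96, 1.26, 2.85 and 1.95 to 1.21, 0.85, 2.06 and 0.46 in Nlrx1-/- litters. Levels of vehicle and stimulated wells overlapped, but the change was downward in all 4 litters of each genotype: it fell by 0.73 ± 0.19 in WT and by 0.86 ± 0.19 in Nlrx1-/- cells (limma adjusted p = 0.00776 and 0.00257). Without the litter block neither change was called (adjusted p = 0.117 and 0.0604). Its neighbour Cd59b, 4593 bp away on chromosome 2 (Cd59a 103926132 to 103947029, plus strand), took 9.76% to 22.7% of the reads of the pair and was not called in either genotype.

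Cd55 was near the detection limit and no change was called. It went from -0.41, 0.43, 0.47 and -0.02 to -1.33, -0.05, 0.26 and -1.12 log2 CPM in WT litters, and from -1.25, -1.67, 0.53 and 0.51 to -1.03, -1.22, -0.79 and -2.58 in Nlrx1-/- litters. It was lower after stimulation in 4 of 4 WT litters and 2 of 4 Nlrx1-/- litters, with differences of -0.68 (95% interval -1.78 to 0.43, limma adjusted p = 0.297) and -0.93 (-2.04 to 0.17, adjusted p = 0.144). With 0 to 74 reads per library among the transcripts paired with its symbol, both intervals include a change of the size seen for Cd59a. Cd55 lies on chromosome 1 (130366469 to 130390926, minus strand).

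The second question was whether Nlrx1-/- cells differed from WT cells before stimulation. No complement gene was called in vehicle at an adjusted p below 0.05 (limma), where 0.00599% of rows, Nlrx1 alone, were called. By edgeR 0 of the 9 and 0 rows were called, and by DESeq2 2 of the 9 (C2 and Serping1), beside 4.59% of rows. Before adjustment 4 of the 9 had p below 0.05, as did 21.1% of all rows. C2 was higher in Nlrx1-/- wells by 1.10 (95% interval 0.47 to 1.73, limma adjusted p = 0.101), C4b was at -1.19 (-1.93 to -0.44, adjusted p = 0.11), Serping1 at -0.92 (-1.43 to -0.41, adjusted p = 0.098) and C1s1 at -0.69 (-1.32 to -0.06, adjusted p = 0.203). With 1 CPM added before the logarithm the C2 difference was 0.54. For none of the 9 genes did the 4 Nlrx1-/- wells and the 4 WT wells separate fully, whereas 6.02% of rows had every Nlrx1-/- vehicle well above every WT one and 3.43% the reverse. For Serping1 and C4b the well that overlapped was litter 3, at 2.66 log2 CPM for Serping1 against 1.43 to 1.55 in the other 3 Nlrx1-/- litters. That litter had the highest vehicle value among Nlrx1-/- litters for 7 of the 9 genes, compared with 28.6% of all rows. Without it 9.68% of all rows were called, and among them C2 was called higher (1.17, limma adjusted p = 0.0411) and C1s1 (-0.91, 0.0404), C4b (-1.57, 0.00876) and Serping1 (-1.21, 0.00616) were called lower. Without WT litter 1, C2 and Serping1 were called (1.34 and -1.07, limma adjusted p = 0.0372 and 0.0427), beside 2.96% of rows.

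**Figure D3:**
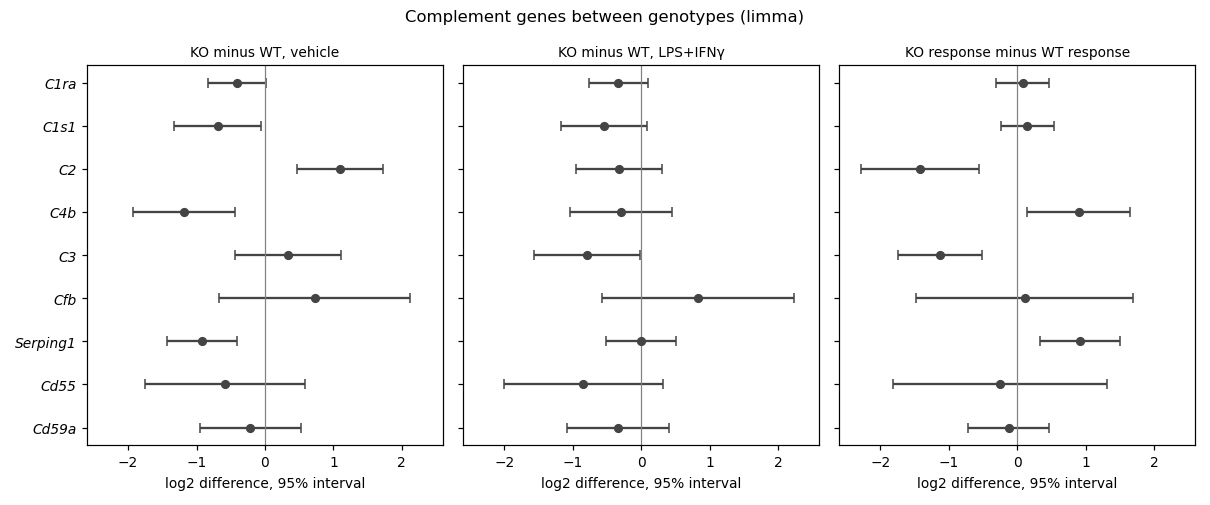
Difference between genotypes for the 9 complement genes on the log2 scale with 95% intervals from limma: Nlrx1-/- minus WT in vehicle, the same in LPS + IFNγ, and the response of Nlrx1-/- cells minus that of WT cells. Intervals that leave out 0, such as those of C2 in the left and right panels, are from unadjusted tests, and none of the 27 differences passed an adjusted p of 0.05.

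The same comparison was made after stimulation. None of the 9 was called by limma, edgeR or DESeq2. Of all rows, limma called 8.8% (4.4% higher and 4.41% lower in Nlrx1-/- wells), edgeR 5.03% and DESeq2 15.2%. The limma share rested on which litters were included. It was 0.00599% without WT litter 2, 3 or 4, 0.012% without Nlrx1-/- litter 2 or 4 and 4.76% without Nlrx1-/- litter 1. Without WT litter 1 it was 12.3% and without Nlrx1-/- litter 3 it was 23.2%. Before adjustment only C3 had p below 0.05, as did 29.6% of rows. No gene separated the genotypes fully, where 7.09% of rows had every Nlrx1-/- well above every WT one and 6.23% the reverse. C3 was lower in Nlrx1-/- wells by 0.78 on the log2 scale (95% interval -1.56 to -0.01, limma adjusted p = 0.164), with levels of 6.13 to 7.58 in Nlrx1-/- and 6.37 to 8.55 log2 CPM in WT wells that overlapped. Serping1 was at 9.36 ± 0.23 and 9.37 ± 0.30 log2 CPM (SD, n = 4), a difference of -0.00 (95% interval -0.51 to 0.51). The other differences ran from -0.84 for Cd55 to 0.84 for Cfb. Without WT litter 1, which had the lowest stimulated WT value for all 9 genes (30.2% of all rows), C3 was called lower (-1.18, limma adjusted p = 0.0314), beside the 12.3% of rows called in that fit. Without Nlrx1-/- litter 3, C3 and C1s1 were called lower (-1.06 and -0.77, adjusted p = 0.048 and 0.045), 2 of 9 beside the 23.2% of rows called in that fit.

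The third question was whether the response itself depended on Nlrx1. No row of 16707 was called for the difference of responses by limma, which shares its vehicle and stimulated wells with the comparisons above, and 2786 rows (16.7%) had an unadjusted p below 0.05. By edgeR 0 rows were called. Of the 9 complement genes 4 had an unadjusted limma p below 0.05. For none were all 4 Nlrx1-/- responses above or below all 4 WT ones, as they were for 3.06% and 5.25% of rows. C3 rose by less in Nlrx1-/- cells, its 4 litter responses being 6.07, 6.18, 6.91 and 6.55 in Nlrx1-/- and 6.75, 7.47, 7.88 and 8.13 in WT cells, a difference of -1.13 ± 0.28 (limma adjusted p = 0.166). For C2 the litter responses were 4.20, 4.15, 4.80 and 5.14 against 4.88, 7.0, 5.85 and 6.26, a difference of -1.42 ± 0.39 (adjusted p = 0.169). Both sets of responses overlapped between genotypes, for C3 by the litters at 6.91 and 6.75 and for C2 by those at 5.14 and 4.88. The C2 vehicle values rest on few reads, 8 in the WT litter with the response of 7.0. Its difference therefore depends on the constant added before the logarithm, and with 1 CPM added it was -0.86. Serping1 and C4b differed the other way, by 0.91 ± 0.27 and 0.90 ± 0.34 (adjusted p = 0.177 and 0.229), the Serping1 responses being 7.56, 8.16, 6.58 and 8.0 in Nlrx1-/- and 6.81, 6.64, 6.50 and 6.69 in WT cells. For C2, C4b and Serping1 the vehicle levels differed more between genotypes than the stimulated levels did, and for C3 the stimulated levels differed more (0.34 in vehicle and -0.78 after stimulation).

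For C1ra and C1s1 the difference of responses was small and well bounded, at 0.08 (95% interval -0.31 to 0.47) and 0.15 (-0.24 to 0.54). For Cfb and Cd55 the intervals were wide, -1.48 to 1.69 and -1.82 to 1.31, which do not exclude a difference of over 1 log2 unit either way. Without Nlrx1-/- litter 3 the difference was called for C3 (-1.29, limma adjusted p = 0.0311), C4b (1.23, 0.0327) and Serping1 (1.25, 0.00699), beside 822 rows in all (4.92%). By DESeq2 on the summed transcript counts it was called for C2 (-1.42, adjusted p = 0.0213), beside 296 rows in all (1.84%).

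Cell type markers also moved with genotype. In LPS + IFNγ, 5 of the 10 astrocyte markers were lower in Nlrx1-/- wells (Aqp4, Slc1a2, Gja1, S100b and Aldoc, limma adjusted p below 0.05), where 4.41% of rows were lower, and the list summed to 2692 to 3873 TPM in Nlrx1-/- and 3428 to 5044 TPM in WT wells. In vehicle the list summed to 2980 to 4999 TPM in Nlrx1-/- and 4227 to 6867 TPM in WT wells, and none of its genes was called. The 5 calls were made without WT litter 1, 8 of the 10 were called without Nlrx1-/- litter 3 and 2 without Nlrx1-/- litter 1, and 0 were called without any of the other litters or with the 8 stimulated libraries alone. The litters with the highest sums, WT litter 4 and Nlrx1-/- litter 3, were those with the highest C3 after stimulation in their genotype. The low end matched in WT cells, at litter 1, but not in Nlrx1-/- cells. There C3 was lowest in litter 1 (6.13 log2 CPM), whose stimulated sum of 3196.5 TPM was above those of litters 2 and 4 (2709 and 2692 TPM). Among stimulated wells of its genotype, WT litter 4 had the highest microglia and macrophage sum (5.52 TPM) and Nlrx1-/- litter 3 the lowest (2.36 TPM). Of the 10 oligodendrocyte-lineage markers Pdgfra and Cnp were lower, and of the 5 ependymal markers with rows Foxj1, Dnah5 and Cfap206, while none of the 7 neuronal, 2 endothelial and 8 fibroblast or mural markers with rows was called. These calls too were absent without WT litter 2, 3 or 4 or Nlrx1-/- litter 2 or 4. Under stimulation the fibroblast and mural list went from 223 to 379 TPM to 108 to 194 TPM in WT wells. In Nlrx1-/- wells it went from 125 to 347 TPM to 115 to 177 TPM, and only there did the ranges overlap. Of the 10 oligodendrocyte-lineage markers 8 fell in Nlrx1-/- and 6 in WT cells, where 25.5% and 21.9% of rows fell. Of the 10 astrocyte markers 5 fell and 2 rose in Nlrx1-/- cells, and 4 fell and 3 rose in WT cells. Of all rows, 26.6% rose in Nlrx1-/- and 24.9% in WT cells. The part of these cell types in the complement differences was not tested. Of the 2 microglia and macrophage markers with rows, P2ry12 (2 to 56 reads per library) rose under stimulation in both genotypes and Cd68 was called in neither. The microglia and macrophage list summed to at most 5.52 TPM in any library.

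The rest of the complement system was covered by a list of 50 other genes, of which 20 had rows. In WT cells 4 of the 20 rose and 5 fell, and in Nlrx1-/- cells 5 rose and 4 fell, with a median log2 difference of -0.08 and 0.00 (limma adjusted p below 0.05, background as above). Colec11, a soluble collectin that starts the lectin pathway, rose by 5.59 ± 0.45 in WT and 3.92 ± 0.45 in Nlrx1-/- cells (adjusted p = 1.06e-06 and 1.75e-05) from -3.02 and -2.54 log2 CPM. Its vehicle libraries held only 0 to 11 reads in WT and 1 to 10 in Nlrx1-/- cells. The size of each rise, and the gap between them, therefore depends on the constant added before the logarithm. C1rl, a C1r-like protease, rose by 2.15 ± 0.22 and 1.63 ± 0.22 (adjusted p = 9.73e-06 and 7.15e-05). Among the other recognition genes Colec12, a scavenger-receptor collectin, fell by 1.99 ± 0.17 and 1.59 ± 0.17 (adjusted p = 2.39e-06 and 1.24e-05), and Masp1, a protease of the lectin pathway, fell by 0.51 and 0.88 (adjusted p = 0.00581 and 0.000102).

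C1q itself was scarcely seen: C1qa, C1qb and C1qc had no row, and reached at most 16, 20 and 11 reads in a library. The receptors C3ar1, C5ar1, C5ar2 and Itgam also had no row, with at most 7, 2, 0 and 5 reads. Hc, which encodes C5, and C8g, the only terminal-pore gene with a row, were not called in either genotype. Cfp, which stabilises the alternative enzyme, fell by 0.82 ± 0.22 in WT cells (limma adjusted p = 0.00818) and stood at -0.49 ± 0.22 in Nlrx1-/- cells (adjusted p = 0.0765).

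Among the regulators Clu, which encodes clusterin, was abundant and was not called under stimulation, at 10.4 and 10.3 log2 CPM in WT vehicle and stimulated wells and 9.12 and 9.11 in Nlrx1-/- wells. Csmd1, a membrane regulator of the nervous system, fell by 1.43 ± 0.15 and 1.3 ± 0.15, and Susd4, another regulator with sushi domains, by 0.53 ± 0.12 and 0.83 ± 0.12 (limma adjusted p from 8.83e-06 to 0.00376). Cr1l, the rodent regulator Crry, rose by 0.40 ± 0.09 and 0.38 ± 0.09 (adjusted p = 0.00243 and 0.00289). C1qbp rose by 0.43 and 0.41 (adjusted p = 0.000786 and 0.000852), and Cd93 by 0.77 ± 0.27 in Nlrx1-/- cells (adjusted p = 0.0287) against -0.17 ± 0.27 in WT cells (adjusted p = 0.636). Between genotypes after stimulation, Cd93 was higher by 2.55 ± 0.71 and Csmd1 was lower by 0.89 on the log2 scale in Nlrx1-/- wells (limma adjusted p = 0.0417 and 0.0478), 2 of 20 beside 8.8% of rows. Both calls held in 2 of the 8 fits that left out 1 litter, those without WT litter 1 and without Nlrx1-/- litter 3 (adjusted p up to 0.142 and 0.153 in the others), and were lost with the 8 stimulated libraries alone (adjusted p = 0.0699 for each). No gene of the 20 was called in vehicle or for the difference of responses.

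**Figure D4:**
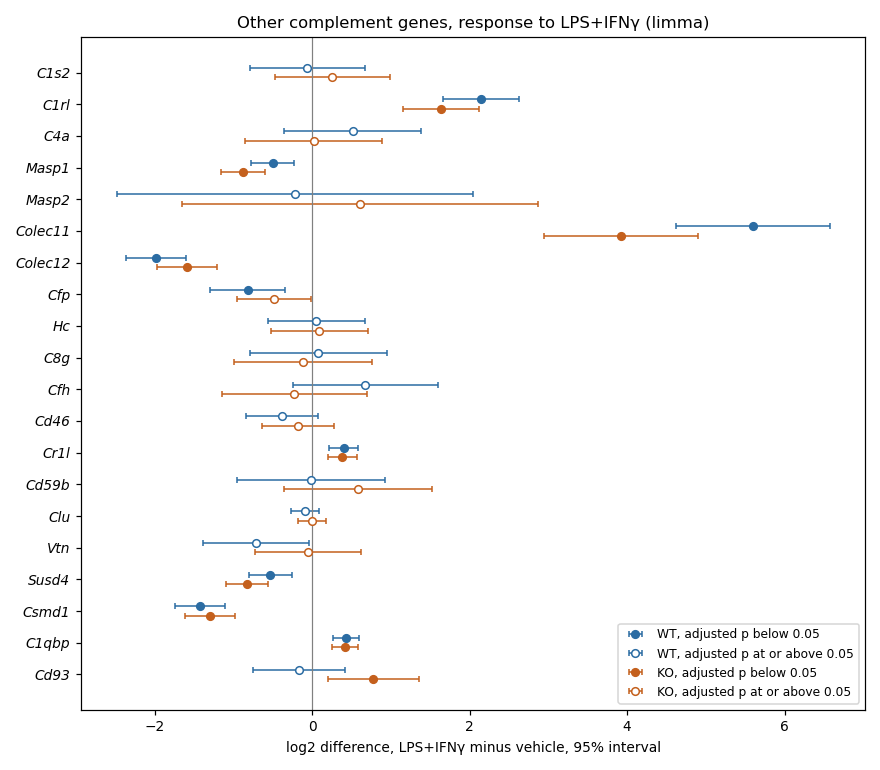
Response to LPS + IFNγ of the 20 other complement genes with a row, as the log2 difference of stimulated and vehicle wells with 95% intervals (blue WT, orange Nlrx1-/-, filled where the limma adjusted p was below 0.05). Colec11 and C1rl lie far to the right and Colec12 and Csmd1 to the left in both genotypes.

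Over the 16 libraries the 7 genes that rose followed each other, since all are low in the 8 vehicle wells and high in the 8 stimulated ones. The rows most like each gene by Pearson's r of log2 CPM are given as a description. For C1ra they were Tapbp (0.998), Irgm2 (0.998) and Tapbpl (0.998), and for C1s1 Tapbp (0.997), Tapbpl (0.995) and C1ra (0.994). For Serping1 they were Gbp2 (0.998), Snx10 (0.998) and Casp1 (0.997), and for C3 Slamf8 (0.995), AW112010 (0.994) and Serpina3i (0.994). C2 was nearest to 2610507B11Rik, H2-Q7 and Prps2 (0.988 to 0.990), C4b to Vwa5a, Gna13 and Mmp19 (0.988 to 0.994), and Cfb to Oas1b, Fndc3c1 and Trarg1 (0.968 to 0.982). Cd59a was nearest to Rpe65, Unc119 and Ldhb (0.939 to 0.954) and Cd55 to Dmkn, Dstn and Fam161a (0.874 to 0.917). Between Cfb and C2, which adjoin in the genome, r was 0.937.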

How the data were processed

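RNA was isolated from 16 astrocyte cultures and sequenced from poly-A libraries as paired reads without strand. Per the labels and methods, the authors quantified transcripts with Salmon 1.7.0 against GRCm39, summed them to genes, filtered low genes (filterByExpr, group size 4) and scaled by TMM. They deposited, per library, Salmon estimated counts, TPM and effective lengths by transcript, and for the series a CPM table (named signal here, since its columns sum to 923353 to 1109135) and its log2 values. The deposited log2 value equals log2(CPM + 0.0573), a constant computed from the 2 tables. The columns of every table matched the labels of 1 sample each.

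The genes and lists were chosen with earlier results of these data known. Named were all 9 genes, Nlrx1, complement genes of a fixed list that were called or are copies of the 9, and the 3 rows most correlated with each gene over 16 libraries. Genes named outside that rule (Hc, C8g, Clu, the C1q chains, receptors and markers) were named after their values were seen.

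Responses and their difference were tested with limma 3.58.1 (trend) on log2 CPM over all 16707 rows, with genotype, litter within genotype and treatment within genotype. Genotypes within a treatment were compared in a fit of 4 groups without litter. P-values were adjusted by Benjamini-Hochberg over all rows with a threshold of 0.05. The replicate is the litter, paired across treatments by the labels: deviations of the wells of 1 litter correlated at 0.07 to 0.35 over 8 pairs, against a median of -0.05 between litters.

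Transcripts were paired with symbols through RefSeq (106440 of 129698 transcripts, 96.7% to 97.3% of reads) and summed to genes for TPM, reads per library, copies, edgeR 4.0.16 and DESeq2 1.42.0, with counts rounded for the last. For Cd55 these sums were 0 in 2 libraries in which the deposited CPM was above 0. Positions are from GRCm39 with GENCODE M39. Depth was 27259420 to 43752903 read pairs per library. Alternatives covered normalization, filters, constants, block, tools, threshold and leaving out each litter. Scripts were tested on simulated data. The authors' own comparison results were not used.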

Additional observations from a re-analysis of the deposited data

Results flagged for a closer look

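In 54 groups of 4 litters (levels of the 9 genes in 4 groups and responses in both genotypes), 1 litter stood apart from the other 3 in 2, where chance flags about 1 in 20. The Serping1 level of Nlrx1-/- vehicle litter 3 was 2.66 log2 CPM, against 1.43 to 1.55 in the others. The C4b response of WT litter 1 was 2.80 on the log2 scale, against 2.22 to 2.29 in the others. No cause was tested.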

How the results depend on the processing

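Both responses kept their direction and call in 169 of 170 alternative values each, the exception being Cd59a without the replicate block (7 genes up and 0 down in both). Among these values are fits that left out a litter of the other genotype, which cannot move the size or direction of a response. Across genotypes, wells with the same litter number correlated at -0.09 to 0.18 over 8 pairs. The 2 values above 0.1 were both of litter 3 (0.18 in vehicle and 0.15 in LPS + IFNγ). The paper states that pups of both genotypes were born on the same day, but the labels do not say whether equal numbers mark a pair. These correlations do not settle it. A replicate block across genotypes called 1 gene in vehicle, Serping1, and moved the rows called in vehicle from 1 to 591. DESeq2 called 2 genes in vehicle, C2 and Serping1, and 1 for the difference of responses, C2. Leaving out 1 litter gave 0 to 4 genes called in vehicle, 0 to 2 in LPS + IFNγ and 0 to 3 for the difference of responses, and 7 up and 1 down for each response. The nonzero counts came from leaving out WT litter 1 or Nlrx1-/- litter 3.

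The 7 results that reversed lay between -0.26 and 0.15 as reported. For the difference of responses, log2(CPM + 1) gave -0.051 for C1ra and -0.011 for C1s1, and DESeq2 gave -0.27 for Cfb. Leaving out 1 litter gave -0.050 to 0.22 for C1ra, -0.013 to 0.31 for C1s1, -0.41 to 0.72 for Cfb, -0.72 to 0.46 for Cd55 and -0.28 to 0.086 for Cd59a, and for genotypes -0.11 to 0.10 for Serping1 in LPS + IFNγ and -0.49 to 0.037 for Cd59a in vehicle. The cause was not tested. Fewest reads stood behind Cfb, Cd55 and the vehicle values of C2 and C3.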
